A study of Mus musculus with 14 samples.

Results

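The genes described here are 34 genes that adipocytes use to take up, make, store and release fatty acids, with the hormones and regulators that mark this cell type. Each was read by its brightest probe set, the one with the highest mean over 14 Affymetrix mouse arrays. A probe set that names the gene alone was found for 30 of the 34. Of these, 25 reached a signal of 200 on 1 array or more and were tested, among 11815 genes tested in all. Cfd, Plin1, Acsl1 and Adrb3 were not matched to a probe set of their own and were not analysed here. Cidec, Lep, Pnpla3, Pck1 and Aqp7 stayed under 200 on every array.

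The arrays held total RNA of 12 osteosarcomas and of 1 tumour labelled rhabdomyosarcoma, all from p53+/- mice, which carry 1 intact copy of the tumour suppressor gene Trp53. As the control, 1 array was run on mc3T3, an osteoblast line of the mouse that forms no tumours and was grown untreated. The sources used here do not state strain, age or sex, nor whether each tumour came from its own mouse, so the p-values measure only the spread between these samples. Osteosarcomas are numbered here 1 to 12 in deposit order, and the groups follow the sample titles. Their identifiers begin with m (6 tumours), c (4) or o (2), prefixes whose meaning is not given. Levels are given as the array signal, a linear intensity scaled by the authors. Differences are in log2(signal + 30), so that the change of a dim gene is understated. A difference was called where its Benjamini-Hochberg adjusted p over all genes was under 0.05 and its size at least 1, so at least 2-fold on that scale. The control line and the labelled rhabdomyosarcoma had 1 array each and were assumed to vary as the osteosarcomas did.

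Adipocytes take in fatty acids that lipoprotein lipase (Lpl) frees from circulating triglyceride at the vessel wall, and pass them through the membrane by Cd36 and through the cytosol by the binding proteins Fabp4 and Fabp5. They also make fatty acids from citrate by the sequence Acly, Acaca and Fasn, lengthen and desaturate them by Elovl6 and Scd1, and join them to glycerol phosphate in steps that include Agpat2 and end with Dgat1 and Dgat2. The triglyceride lies in droplets coated by perilipins and is released by Pnpla2, Lipe and Mgll in turn. Pparg and Cebpa are the transcription factors that drive this programme. Several of these genes are not private to fat: macrophages express Fabp4, Cd36 and Lpl, capillary endothelium Fabp4 and Cd36, and skeletal muscle Slc2a4 and Car3.

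The arrays were alike in brightness, with median signals between 67.1 and 111 and between 33.8% and 40.4% of probe sets at 200 or more. The ratio of the 3' to the 5' beta-actin probe sets, which rises with RNA degradation, was 1.42 to 2.13 in the osteosarcomas, 1.24 in the labelled rhabdomyosarcoma and 1.32 in mc3T3. Osteoblast genes, as a mean log2 level over 9 genes, stood at 13.20 to 14.07 in the osteosarcomas, 9.22 in the labelled rhabdomyosarcoma and 10.40 in mc3T3. The bone matrix gene Ibsp had a signal of only 37.4 in mc3T3 and at least 30210.3 in each osteosarcoma. Genes of other cell types were far brighter in the tumours than in the cultured line. The mean level of 15 macrophage genes was 6.34 in mc3T3, 11.35 to 13.07 in the osteosarcomas and 13.31 in the labelled rhabdomyosarcoma, and that of 15 endothelial genes was 6.26, 9.01 to 10.40 and 9.56. Mature skeletal muscle genes, over a list of 20, varied most, from 6.25 in osteosarcoma 11 to 13.93 in osteosarcoma 6, with 7.18 in the labelled rhabdomyosarcoma and 6.002 in mc3T3.

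The defining fat cell markers were dim on most arrays. Of Adipoq, Plin1, Cidec, Cfd, Lep and Retn, 4 had a probe set, and the leptin gene Lep was at 53.7 or less in every osteosarcoma. Cidec, which fuses droplets in white fat, reached at most 86.4 in the osteosarcomas and was at 72.7 in mc3T3. Adipoq was at 2.7 in mc3T3 and between 66.8 and 1569.7 in the osteosarcomas. In RNA of a whole tumour, fewer cells of a type and less RNA per cell cannot be told apart.

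The sequence upstream of the start was listed in RefSeq (GRCm38.p6) for 23 of the 34 genes. Over the 250 bases before each of their starts, the nuclear receptor half-site AGGTCA occurred on either strand in 5 of the 23 genes, or 21.7%, against 15.8% of all 27025 genes listed. The CCAAT box (CCAAT on either strand) was in 8 of 23 against 37.5% of all, and the E-box CACGTG in 2 of 23 against 6.86%. The sterol response element TCACNCCAC, with any base at N, was in 1 of 23, Acsl1, against 1.225% of all. The direct repeat of half-sites with 1 base between them, which holds the half-site, was in 0 of 23 and in 0.041% of all. The genes with the half-site were Acly, Aqp7, Cd36, Elovl6 and Pparg. A match is a description of letters, not of a bound factor. Shown here are the stretches before the starts of Adipoq, the fat cell hormone, of Cd36 and Mgll, which differed between the tumours and mc3T3, and of Elovl6, the 1 called gene that was lower in the tumours. Capitals mark the half-site, CCAAT box or E-box. For Mgll the first listed of its starts is shown, and the stretch before its other listed start holds none of these. The Adipoq stretch holds CCAAT boxes beginning 34, 27 and 7 bases before the start, that of Cd36 a half-site and a CCAAT box, that of Mgll an E-box 44 bases before the start, and that of Elovl6 a half-site.
Adipoq promoter, chr16:23146286-23146535, plus strand: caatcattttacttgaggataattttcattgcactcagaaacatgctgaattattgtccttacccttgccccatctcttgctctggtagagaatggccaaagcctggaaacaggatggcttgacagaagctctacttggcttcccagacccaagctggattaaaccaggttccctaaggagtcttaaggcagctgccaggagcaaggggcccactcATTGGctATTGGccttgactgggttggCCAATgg
Cd36 promoter, chr5:17835897-17836146, minus strand: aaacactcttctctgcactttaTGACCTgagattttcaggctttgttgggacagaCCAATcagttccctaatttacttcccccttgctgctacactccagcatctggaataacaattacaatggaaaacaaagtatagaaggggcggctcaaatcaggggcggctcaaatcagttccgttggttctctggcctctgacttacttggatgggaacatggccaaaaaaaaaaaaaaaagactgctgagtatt
Mgll promoter, chr6:88724162-88724411, plus strand: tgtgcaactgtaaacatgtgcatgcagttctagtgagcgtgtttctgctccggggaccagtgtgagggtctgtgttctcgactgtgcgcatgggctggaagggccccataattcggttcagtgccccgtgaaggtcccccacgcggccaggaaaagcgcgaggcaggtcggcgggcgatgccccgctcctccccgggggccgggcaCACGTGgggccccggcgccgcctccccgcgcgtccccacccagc
Elovl6 promoter, chr3:129532136-129532385, plus strand: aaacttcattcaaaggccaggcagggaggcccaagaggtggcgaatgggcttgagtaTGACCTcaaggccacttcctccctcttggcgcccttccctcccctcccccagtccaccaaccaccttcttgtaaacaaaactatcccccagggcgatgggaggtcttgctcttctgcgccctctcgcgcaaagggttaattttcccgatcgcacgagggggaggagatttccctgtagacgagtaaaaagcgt

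The design sets the tumours against the osteoblast line. Between these, Fabp4, Car3, Lpl, Angptl4, Cd36 and Mgll were higher in the osteosarcomas, with log2 differences of 3.89 to 8.73, and Elovl6 was lower, at -2.19. The higher genes have different roles: Lpl, Cd36 and Fabp4 bring in and carry fatty acids, Angptl4 inhibits Lpl, Mgll ends lipolysis and Car3 is a carbonic anhydrase. In limma's test, 6 of the 25 were called higher, where 8.59% of all genes tested were, and 1 was called lower, where 4.58% were. The median difference was 0.91 over the 25 and -0.02 over all genes tested. Every osteosarcoma lay above mc3T3 in 11 of the 25 genes, against 21.5% of all genes, and below it in 5 of 25, against 21% of all genes. In mc3T3, 14 of the 25 were under 200 and passed the filter through tumour arrays alone, among them all 6 called higher. For these 14, the filter could only lean the counts towards the tumours. Of them, 7 reached 200 in osteosarcomas alone.

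**Figure D1:**
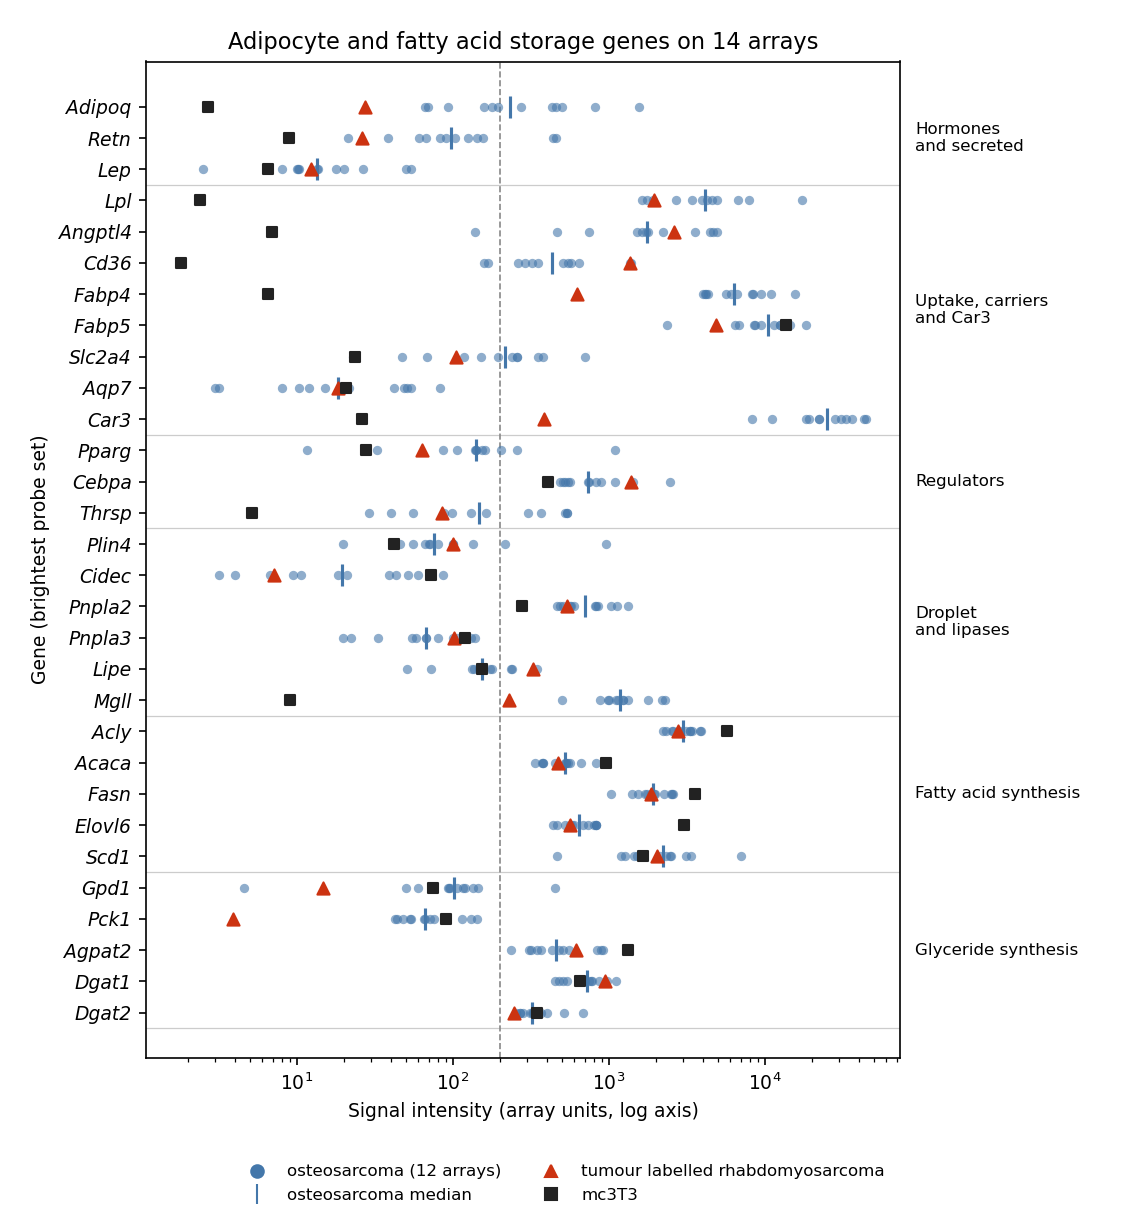
Signal (array units, log axis) of the 30 genes with a probe set on the 12 osteosarcoma arrays (circles, with a bar at their median), the tumour labelled rhabdomyosarcoma (triangle) and mc3T3 (square), by role, with a dashed line at 200. Lpl, Cd36, Fabp4, Car3 and Mgll lie far to the right of mc3T3 in every osteosarcoma, while Acly, Acaca, Fasn and Elovl6 lie to its left.

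Lpl frees fatty acids from lipoproteins, and its signal in the osteosarcomas was 1623 at the lowest, 4137 at the median and 17279 at the highest, with 2.4 in mc3T3. The difference was 6.97 ± 0.91 (SE, adjusted p = 0.000138), and the groups did not overlap. Angptl4, a secreted inhibitor of Lpl, ran from 138 through a median of 1764 to 4967, with 6.9 in mc3T3, a difference of 5.50 ± 1.34 (adjusted p = 0.0134), not called within the 6 tumours with c or o identifiers (5.25, adjusted p = 0.0780). This gene had the widest spread of the 25, with an SD of 1.46 on the log2 scale over the 12 osteosarcomas. The fatty acid translocase Cd36 ran from 158 through 431 to 1395, with 1.8 in mc3T3. Its difference was 3.89 ± 0.89 (adjusted p = 0.00897). Another of its probe sets gave 2.61 and was called, while a further one gave 0.23 and was not, and with the probe sets averaged the difference of 2.24 was no longer called (adjusted p = 0.0721, and 0.00174 to 0.0721 over the alternatives).

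Fabp4, the carrier known from fat cells and macrophages, had a signal of 4007 at the lowest, 6325 at the median and 15732 at the highest in the osteosarcomas, a mean of 7317 ± 3508 (SD, n = 12), and 6.5 in mc3T3. The difference was 7.52 ± 0.61 (adjusted p = 1.88e-06), with no overlap. Its near relative Fabp5 did not share this: the signal was 2369 to 18298 in the osteosarcomas, and mc3T3, at 13600, lay within that range (difference -0.53 ± 0.72, adjusted p = 0.680). Car3, a carbonic anhydrase abundant in fat and slow muscle, had a signal of 8274, 25187 and 44394 at the lowest, median and highest osteosarcoma and 26.2 in mc3T3. Its difference of 8.73 ± 0.71 (adjusted p = 1.88e-06) was the largest of the 25. Of its 4 tested probe sets, 2 were called higher, at 8.73 and 5.21, and the others gave 2.41 and 2.14, not called. The insulin-responsive glucose carrier Slc2a4 ran from 22.8 to 703, above mc3T3 at 23.6 in 11 of 12 osteosarcomas (difference 1.95, adjusted p = 0.227). Between mc3T3 and the osteosarcomas, 14 of 15 macrophage and 13 of 15 endothelial genes were also called higher, with C1qb at 2.6 and Pecam1 at 31.6 in mc3T3, and their part in these differences was not tested.

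Of the hormone genes, Adipoq and Retn had a brighter signal in each osteosarcoma than in mc3T3 but were not called, and Lep was too dim to be tested. Adipoq, which encodes adiponectin, had a median of 234 in the osteosarcomas and differed by 3.19 ± 1.16 (adjusted p = 0.0858). It was called with a smaller offset of 10 in place of 30 (4.42, adjusted p = 0.0330), while its difference ranged from 1.92 to 4.42 and its adjusted p from 0.0330 to 0.195 over the alternatives. Retn, the resistin gene of mouse fat, ran from 21.2 to 462 with 8.9 in mc3T3 (1.86 ± 0.91, adjusted p = 0.202).

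Of the regulators, none was called. Pparg, the nuclear receptor of fat cell formation, had a signal of 11.6 at the lowest, 142 at the median and 1094 at the highest osteosarcoma. It was above mc3T3, at 28.0, in 11 of 12 osteosarcomas (adjusted p = 0.380). Cebpa ran from 485 to 2461, with 409 in mc3T3 just under the lowest tumour (difference 0.91 ± 0.65, adjusted p = 0.394). Thrsp, a nuclear protein that responds to thyroid hormone and carbohydrate and goes with fat synthesis, ran from 28.9 to 543 above 5.2 in mc3T3 (2.50 ± 1.12, adjusted p = 0.161).

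The droplet and lipolysis genes split. Mgll, which cleaves the last fatty acid from glycerol, had a signal of 501, 1189 and 2310.2 at the lowest, median and highest osteosarcoma and 9.0 in mc3T3, a difference of 5.00 ± 0.57 (adjusted p = 4.19e-05). All 3 of its tested probe sets were called higher. The enzymes of the earlier steps were closer: Pnpla2 ran from 465 to 1325 above 276 in mc3T3 (1.30 ± 0.49, adjusted p = 0.0969), and hormone-sensitive lipase, Lipe, differed by 0.01 ± 0.58 (adjusted p = 0.993). The droplet coat gene Plin4 ran from 19.8 through a median of 75.8 to 955, above mc3T3 at 42 in 11 of 12 osteosarcomas (adjusted p = 0.624). Pnpla3, a lipase-like droplet protein, was at 19.8 to 139 in the osteosarcomas and 120.2 in mc3T3.

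Of the 5 tested genes of fatty acid synthesis, 1 was called, lower. Elovl6, which lengthens palmitate to stearate, had a signal of 437 at the lowest, 640.4 at the median and 831 at the highest osteosarcoma, against 3034 in mc3T3. Its difference of -2.19 ± 0.36 (adjusted p = 0.000807) was shared by its other tested probe set, at -2.41, and the groups did not overlap. Acly, Acaca and Fasn, the enzymes of the steps before it, were also below mc3T3 in all 12 osteosarcomas, but none was called. Acly ran from 2239 to 3886 against 5741 in mc3T3 (-0.94 ± 0.32, adjusted p = 0.0674). Fasn ran from 1037 to 2569 against 3556 (-0.92 ± 0.41, adjusted p = 0.158), and Acaca from 336 to 828 against 960.1 (-0.92 ± 0.39, adjusted p = 0.139). The desaturase gene Scd1 overlapped, at 463 to 7083 around 1658 (adjusted p = 0.886).

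The glyceride synthesis genes gave no call. Agpat2, which adds a fatty acid to lysophosphatidic acid, was below mc3T3 in every osteosarcoma, at 237 to 923 against 1323 (-1.42 ± 0.59, adjusted p = 0.129). The last enzymes of triglyceride synthesis, Dgat1 and Dgat2, differed by 0.07 ± 0.41 and 0.01 ± 0.41. Gpd1, which makes glycerol phosphate, ran from 4.6 to 452 around 74.6 (adjusted p = 0.854). Pck1, the enzyme of glyceride-glycerol formation from pyruvate, was at 42.4 to 144 with 91.1 in mc3T3, and the glycerol channel Aqp7 at 3.0 to 82.8 with 20.8.

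**Figure D2:**
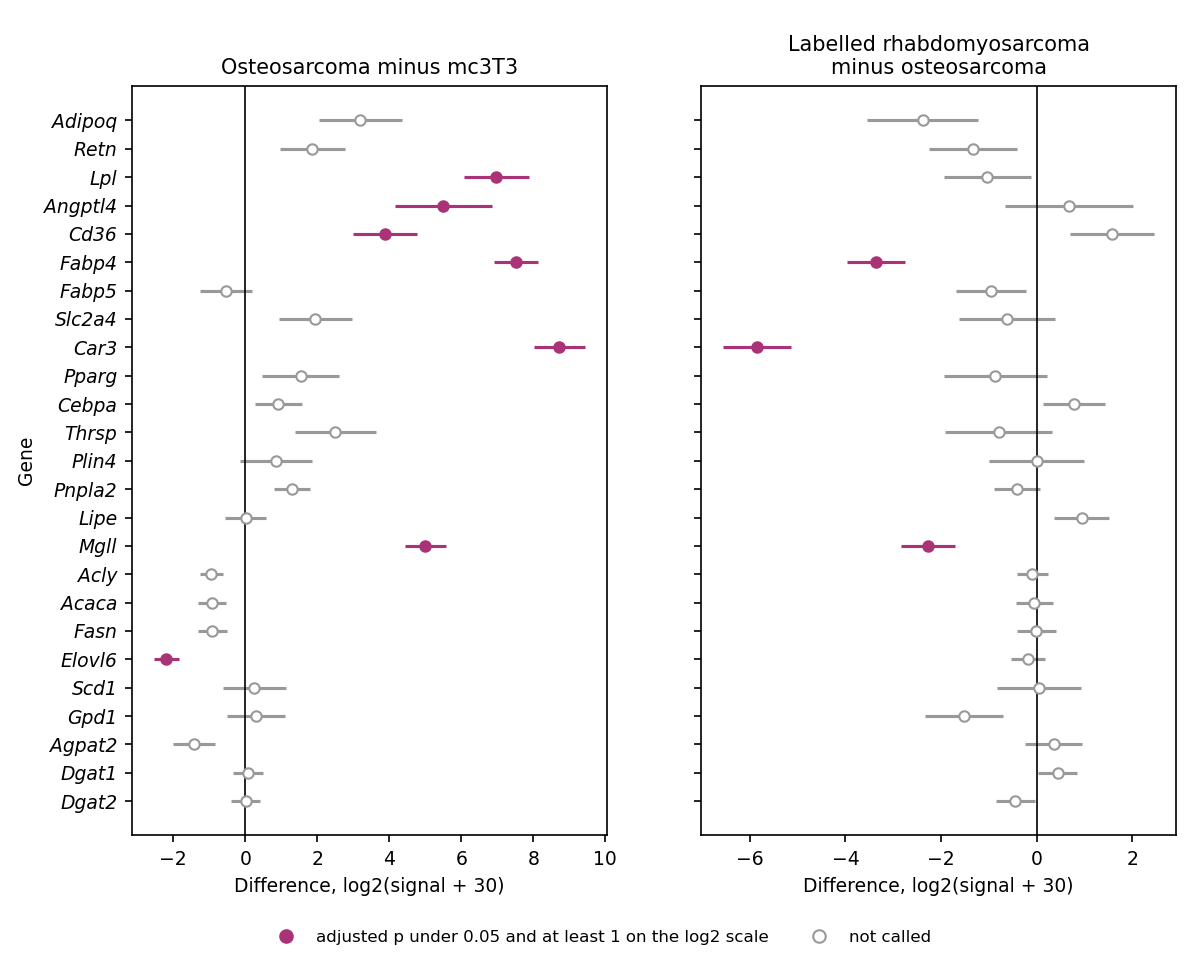
Difference on the log2(signal + 30) scale with its standard error for the 25 tested genes, osteosarcoma minus mc3T3 on the left and the labelled rhabdomyosarcoma minus osteosarcoma on the right, filled where called. On the left, 6 genes are called above 0 and Elovl6 below it, and on the right Fabp4, Car3 and Mgll are called below 0.

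The second comparison set the tumour labelled rhabdomyosarcoma against the osteosarcomas. Fabp4, Car3 and Mgll were lower in it, with log2 differences of -3.36, -5.85 and -2.27. By limma's test 0 of 25 were called higher, where 1.19% of all genes were, and 3 lower, where 1.76% were, and 3 of 25 had an unadjusted p under 0.05, as did 16% of all genes. The median difference was -0.41 over the 25 and 0.05 over all genes tested. The labelled rhabdomyosarcoma lay below all 12 osteosarcomas in 5 of 25 genes (Adipoq, Car3, Dgat2, Fabp4 and Mgll), against 14.1% of all genes, and above all of them in 0 of 25, against 16.6%. Of the 25 genes, 7 reached 200 in osteosarcomas alone, Adipoq among them, but none of the 3 called ones. For these 7, the filter could only lean the counts and the median towards lower values in the labelled rhabdomyosarcoma. Both comparisons use the same osteosarcoma arrays.

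Car3 had a signal of 383 in the labelled rhabdomyosarcoma, under the lowest osteosarcoma at 8274, a difference of -5.85 ± 0.71 (adjusted p = 0.000285). Another of its probe sets gave -5.59 and was called, while the others gave -2.20 and -2.30 and were not. Fabp4 was at 622, with the lowest osteosarcoma at 4007 (-3.36 ± 0.61, adjusted p = 0.00748), and its other tested probe set gave -3.52. Within the 4 osteosarcomas with c identifiers the Fabp4 difference was -3.17 and not called (adjusted p = 0.0786). Mgll was at 229, with the lowest osteosarcoma at 501 (-2.27 ± 0.57, adjusted p = 0.0449). Its other tested probe sets gave -1.74 and -1.68, not called. The Mgll call was lost under 14 of 23 alternatives, with adjusted p from 0.0136 to 0.275, among them leaving out osteosarcoma 2, 3, 6, 7, 9, 10, 11 or 12. The difference itself stayed between -2.43 and -1.90.

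The other capture genes lay within the osteosarcoma range in this tumour. Lpl was at 1955, which 9 of 12 osteosarcomas exceeded (-1.04 ± 0.91, adjusted p = 0.623). Cd36 was at 1376, near the top of the osteosarcoma range (1.58 ± 0.89, adjusted p = 0.406), and Angptl4 at 2622 lay within it. The macrophage level of this tumour, 13.31, was above that of every osteosarcoma, with 0 of 15 macrophage genes called, and its endothelial level was within their range. Adipoq was at 27.5, below the lowest osteosarcoma at 66.8 (-2.38 ± 1.16, adjusted p = 0.334). The synthesis genes were near the osteosarcoma mean: Fasn differed by -0.01 ± 0.41, Acaca by -0.05 ± 0.39, Acly by -0.09 ± 0.32, Elovl6 by -0.17 ± 0.36 and Scd1 by 0.05 ± 0.89. With its standard error of 0.89, a 2-fold difference of Scd1 could not have been detected. The limit is not particular to Scd1: on simulated data, only 8% of changes of 1 on the log2 scale were recovered in this comparison.

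Within the osteosarcomas, 19 of the 25 genes had an SD above the median SD of all genes and 6 had one below it. The median of their SDs on the log2 scale was 0.75, against 0.43 over all genes tested, and the SDs ranged from 0.27 in Acly to 1.46 in Angptl4. The SD of Angptl4 was at percentile 98.2 of all genes, those of Adipoq and Thrsp at 96.7 and 96.3, and those of Elovl6 and Acly at only 23.2 and 11.2. Gpd1, Plin4, Retn and Pparg reached 200 in only 1 to 3 of the osteosarcomas, so the filter itself favoured genes with spread.

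The highest signals of the 25 genes were not all in 1 tumour. They were unevenly spread, and osteosarcomas 1, 3, 7 and 9 held none. The median difference of the 25 genes from the other 11 tumours was largest in osteosarcoma 6, at 0.57, with 0.006 over all genes. Osteosarcoma 6 had the highest signal in 6 of the 25 genes (Adipoq, Car3, Plin4, Cd36, Slc2a4 and Gpd1). Osteosarcoma 8 had the highest in 4, namely Fabp4, Lpl, Pparg and Fasn, but also the lowest in 5, among them Scd1 and Cebpa. Osteosarcoma 2 was highest in Retn, Cebpa, Acaca and Lipe, and osteosarcoma 5 in Scd1, Dgat1, Agpat2 and Mgll. Osteosarcoma 11 was highest in Fabp5, Angptl4 and Elovl6, osteosarcoma 12 in Dgat2 and Pnpla2, osteosarcoma 4 in Acly and osteosarcoma 10 in Thrsp.

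**Figure D3:**
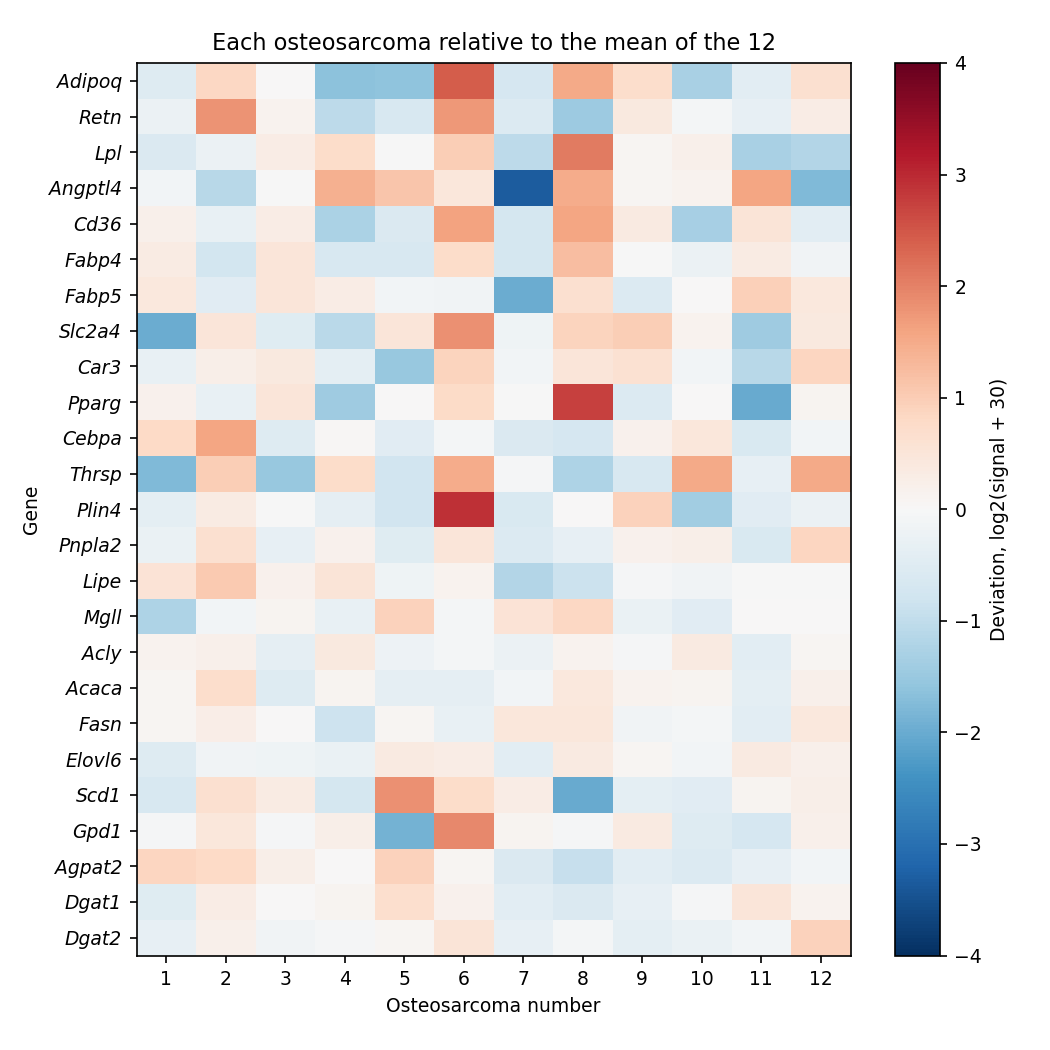
Deviation of each of the 12 osteosarcomas (columns, by number) from their mean for the 25 tested genes (rows, by role), in colour on the log2(signal + 30) scale. Adipoq and Plin4 are darkest in osteosarcoma 6 and Pparg in osteosarcoma 8, while the palest band is that of the synthesis genes Acly, Acaca, Fasn and Elovl6.

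Each osteosarcoma was then set against the other 11 in a fit of its own over all genes. No call fell on these genes in any of the 12 fits, where 0.0741% of all gene tests were called, and between 0 and 6 of the 25 per tumour had an unadjusted p under 0.05 in limma's test, as did 1.71% to 11.5% of all genes. The 6 were in osteosarcoma 6, where 5.75% of all genes did. Plin4 in osteosarcoma 6 came nearest. Its signal there was 955, with 215 in osteosarcoma 9 as the next highest, a difference of 3.18 ± 0.58 (adjusted p = 0.0517). It was called with an offset of 100 (2.54, adjusted p = 0.00605), after quantile normalization (3.20, adjusted p = 0.0208) and when other genes were read by the mean of their probe sets (adjusted p = 0.0479). Plin4 has 1 probe set, so its difference was the same in that setting. Osteosarcoma 6 also had a beta-actin 3' to 5' ratio of 1.98, the next to highest, and the highest muscle level, and their part in its values was not tested.

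Some single values were far out without a call. Pparg had a signal of 1094 in osteosarcoma 8 and at most 257 in the others, a difference of 2.98 ± 0.77, with Lpl in the same tumour at 2.28 ± 0.72 above the rest. Scd1 went the other way there, at -2.21 ± 0.70, while in osteosarcoma 5 it was 1.99 ± 0.75 above the others. In osteosarcoma 7 the Lpl inhibitor gene Angptl4 had a signal of 138 (-3.61 ± 0.99, adjusted p = 0.179) and the carrier gene Fabp5 one of 2369 (-2.15 ± 0.47, adjusted p = 0.0943). These are values of single arrays, and those of osteosarcomas 5 and 8 were farther from a call than those of osteosarcoma 7.

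To ask which genes followed the fat cell hormone across tumours, each gene was fitted on the log2 level of Adipoq over the 12 osteosarcomas. None of the 24 other genes was called, where 0% of all genes were, and 8 of the 24 had an unadjusted p under 0.05 in limma's test, as did 4.85% of all genes. Among the lowest p-values were those of sarcomere genes such as Mybpc1 (slope 1.40 ± 0.21) and Mybpc2 (2.06 ± 0.36), and all 20 mature muscle genes had an unadjusted p under 0.05. Plin4 stood 24th and Cd36 30th of all genes by p. All 8 of the storage genes had positive slopes, in log2 units per log2 unit of Adipoq. The steepest of these were Plin4 at 0.70 ± 0.14 (adjusted p = 0.117) and Cd36 at 0.62 ± 0.13 (adjusted p = 0.118). Slc2a4, Gpd1 and Car3 followed at 0.55 ± 0.19, 0.51 ± 0.14 and 0.46 ± 0.11, and Pparg, Retn and Fabp4 completed the 8. The synthesis genes were not among them. Osteosarcoma 6 had the highest signal of Adipoq and also of Plin4, Cd36, Slc2a4, Gpd1 and Car3. Plin4 reached 200 in only 2 of the 12 osteosarcomas and Gpd1 in only 1.

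Adipoq itself had a called slope on the muscle genes. Its slope on the mature muscle level was 0.40 ± 0.09 (adjusted p = 0.0463), and it was the 1 gene of 25 called, where 1% of all genes were. Osteosarcoma 6, with the highest muscle level, had the highest Adipoq signal, at 1569.7, and osteosarcomas 4 and 11, with the lowest muscle levels, had 66.8 and 194. Osteosarcoma 9, with a muscle level of 13.24, had an Adipoq signal of 462, below those of osteosarcomas 2 and 8, which had less muscle. Plin4 (0.34 ± 0.08) and Slc2a4 (0.35 ± 0.08) had adjusted p-values of 0.0576 each, and Car3 and Cd36 had slopes of 0.21 ± 0.06 and 0.24 ± 0.08. In all, 8 of the 25 had an unadjusted p under 0.05, as did 5.49% of all genes.

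The Adipoq call did not hold widely. It was lost under 17 of 24 alternatives, with slopes between 0.31 and 0.53 and adjusted p from 0.0236 to 1.00. Among these were leaving out osteosarcomas 6 and 9, the tumours farthest from the median muscle level (slope 0.43, adjusted p = 1.00), and leaving out osteosarcoma 1, 2, 3, 4, 6, 7, 8, 10 or 12 alone. Within the 6 tumours with m identifiers, the slope of Adipoq was 0.53 (adjusted p = 0.368), and Plin4 was called in its place (0.59, adjusted p = 0.0455). Within the 6 with c or o identifiers it was 0.31 and within the 4 with c identifiers 0.39, neither called (adjusted p = 1.00 and 0.840). With an offset of 100, Adipoq, Plin4 and Slc2a4 were all called. The part of muscle RNA in these values was not tested.

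**Figure D4:**
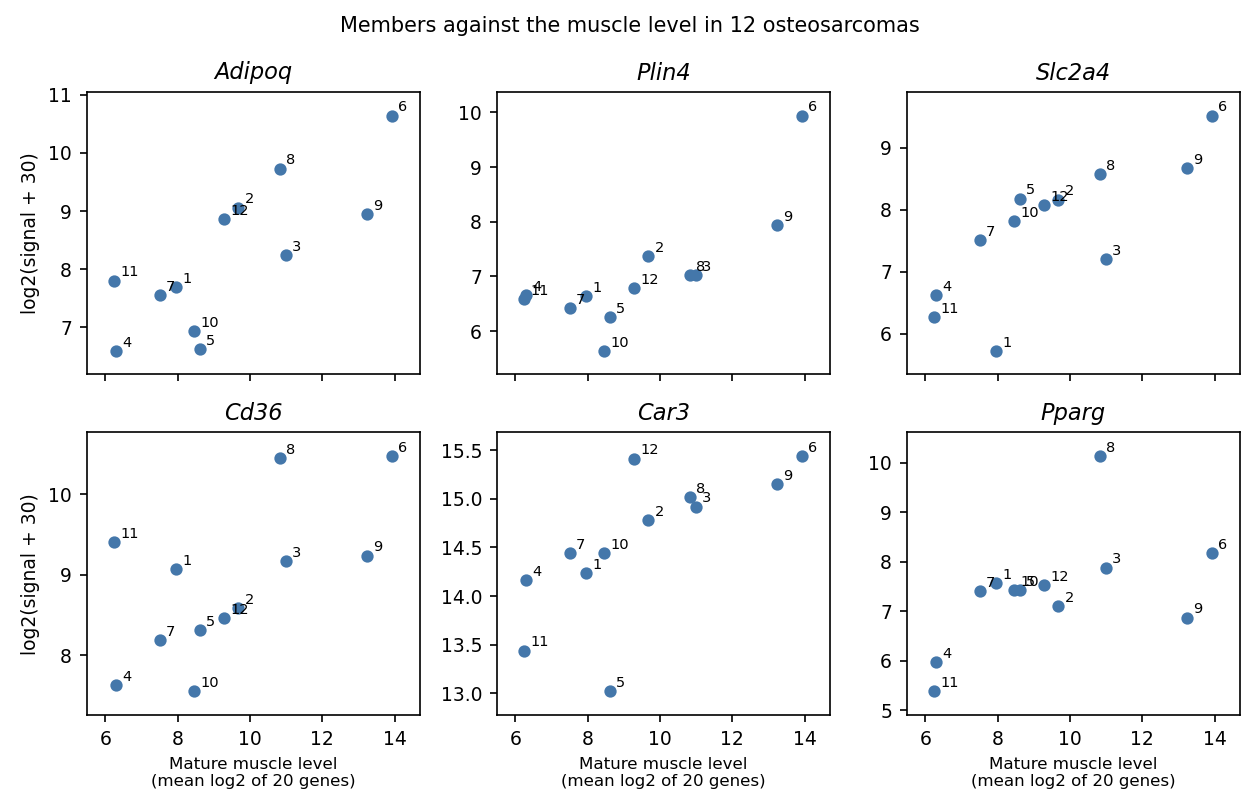
Level of 6 genes, log2(signal + 30), against the mean log2 level of 20 mature muscle genes, 1 numbered point for each of the 12 osteosarcomas. Osteosarcoma 6, at a muscle level of 13.93, is highest in Adipoq, Plin4, Slc2a4, Cd36 and Car3, while Pparg is highest in osteosarcoma 8.

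The other cell types gave less. On the macrophage level, 0 of 25 genes were called, where 0.508% of all genes were, and 2 had an unadjusted p under 0.05 in limma's test, as did 7.69% of all genes: Lipe (0.75 ± 0.25) and Agpat2 (0.73 ± 0.27). On the endothelial level, 0 of 25 were called, where 0.00847% of all genes were, and none had an unadjusted p under 0.05, as 6.97% of all genes did. The slopes of Lpl and Fabp4 on the endothelial level were 1.28 ± 0.62 and 0.71 ± 0.43. The macrophage level spanned only 11.35 to 13.07 over these tumours. In all, 4 such levels were tried, and the adjusted p-values cover the genes of each fit but not the 4 fits together.

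Other genes of the pathway were read from 5 lists. Of 12 tested genes of fatty acid uptake, transport and activation, 3 were called higher in the osteosarcomas than in mc3T3 and 0 lower, beside 8.59% and 4.58% of all genes, with a median difference of 0.55. Slc27a3, a fatty acid transport protein gene, had a difference of -1.88 that was not called. Vldlr, a lipoprotein receptor, had a signal of 32.3 in mc3T3 and 6062 ± 2739 (SD, n = 12) in the osteosarcomas (6.47 ± 0.64, adjusted p = 1.21e-05), though averaging its probe sets gave 3.62 (adjusted p = 0.000576). Gpihbp1, the capillary anchor of Lpl, was at 73.7 against 2603 ± 637 (4.62 ± 0.40, adjusted p = 3.19e-06), and at 3205 in the labelled rhabdomyosarcoma. Fabp3, the carrier of heart and skeletal muscle, was at 152 against 2045 ± 962 (3.35 ± 0.72, adjusted p = 0.00628), and at 150.5 in the labelled rhabdomyosarcoma (-3.36 ± 0.72, adjusted p = 0.0202, and 0.0732 within the 6 tumours with c or o identifiers). Fabp3 was thus called in the same directions as Fabp4 in both comparisons. It was the 1 gene of this list called lower in the labelled rhabdomyosarcoma, where 1.76% of all genes were.

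Among 16 genes of droplets, glyceride synthesis and lipolysis, 1 was called higher in the osteosarcomas than in mc3T3, where 8.59% of all genes were. It was Pde3b, the phosphodiesterase through which insulin restrains lipolysis (3.77 ± 0.50, adjusted p = 0.000157). Among 13 adipogenic transcription factors and cofactors, 1 was called higher and 1 lower than in mc3T3, beside 8.59% and 4.58% of all genes. Ppargc1b was the higher one (1.83 ± 0.46, adjusted p = 0.0160). It was also the 1 gene of the list called lower in the labelled rhabdomyosarcoma, where 1.76% of all genes were (-2.35 ± 0.46, adjusted p = 0.0119). Rxra, the partner of Pparg on DNA, was lower in the osteosarcomas (-1.53 ± 0.47, adjusted p = 0.0444), but was not called under 11 of 23 alternatives, among them leaving out osteosarcoma 3, 4, 6, 9, 11 or 12 (adjusted p 0.0262 to 0.229 over all). Neither Ppargc1b difference was called within the 6 tumours with c or o identifiers (adjusted p = 0.0826 and 0.0926).

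Of 13 genes of fatty acid synthesis, elongation and desaturation, 1 was called higher in the osteosarcomas than in mc3T3, where 8.59% of all genes were. It was Pgd of the pentose phosphate pathway, which supplies reducing power (2.01 ± 0.46, adjusted p = 0.00887). The call was lost with the mean of its probe sets (1.46, adjusted p = 0.0544). The median difference of the 13 genes was -0.25. Of 17 genes of fatty acid oxidation, 1 was called higher in the osteosarcomas, beside 8.59% of all genes. In the labelled rhabdomyosarcoma 1 was called lower, beside 1.76%. Both calls were of Acaa2, which cuts the chain in mitochondria, at 1.66 ± 0.32 (adjusted p = 0.00321) and -1.45 ± 0.32 (adjusted p = 0.0256). The second call was lost within the 6 tumours with m identifiers (adjusted p = 0.114) and the 6 with c or o (adjusted p = 0.0837).

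**Figure D5:**
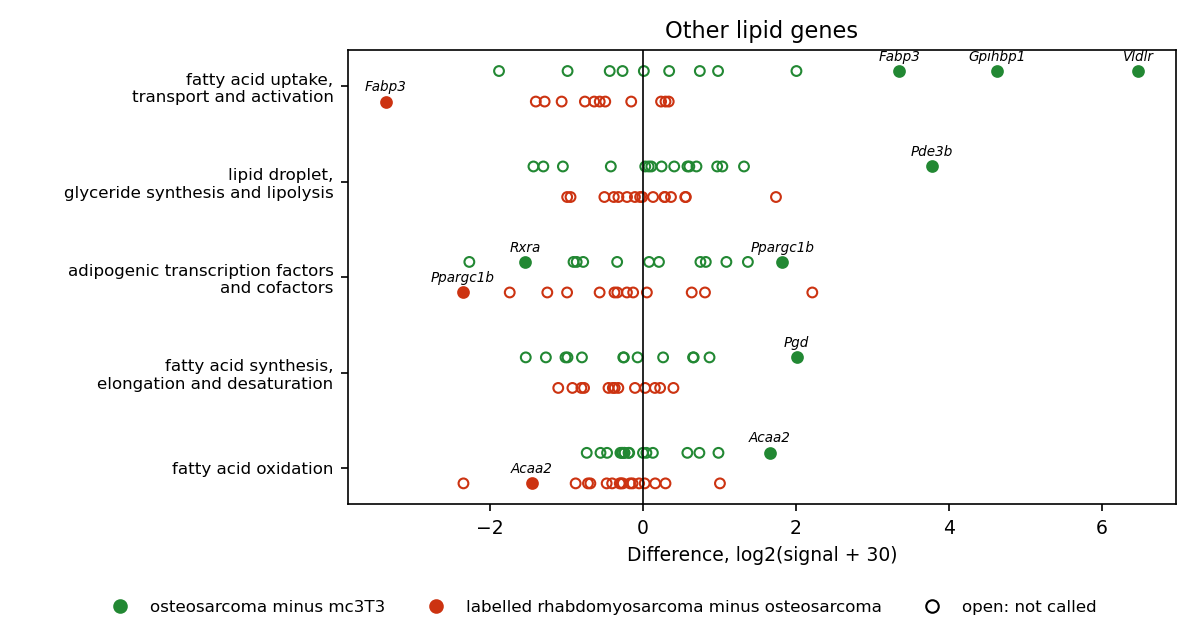
Difference on the log2(signal + 30) scale for the tested genes of 5 related lipid lists, osteosarcoma minus mc3T3 (upper row of each list) and the labelled rhabdomyosarcoma minus osteosarcoma (lower row), filled and named where called. Vldlr at 6.47 and Gpihbp1 at 4.62 stand farthest above 0, and Fabp3 lies at 3.35 in the upper and -3.36 in the lower row.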

How the data were processed

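Total RNA was hybridised to 14 Affymetrix mouse arrays. The authors deposited 1 linear intensity per probe set and array, made with GCOS per the submitters' processing notes (version and settings not given in the sources used here). The deposited intensity values have a trimmed mean of 500.0 on every array after the highest and lowest 2% are left out. Of 45101 probe sets, 34945 were named with 1 gene from the platform annotation, with symbols updated through RefSeq, 932 name several genes, 9147 are unnamed and 64 are controls. A gene was represented by its brightest probe set among those that reached a signal of 200 on any array.

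From these, log2(signal + 30) was tested two-sided with limma 3.58.1 in R 4.3.3 (lmFit, eBayes, Benjamini-Hochberg over all genes), with 3 groups in 1 model and 11 residual degrees of freedom. Further fits used the 12 osteosarcomas alone: each against the other 11, and slopes on the levels of Adipoq and of muscle, macrophage and endothelial genes. The fits were tested on simulated data. A change of 1 on the log2 scale was recovered for 4% of changed genes against mc3T3 and 8% in the labelled rhabdomyosarcoma. A change of 2 was recovered for 52% and 50%, and a change of 4 for 96% and 94%. For the slope on Adipoq, 64% of simulated slopes of 0.5 and 96% of those of 1 were recovered. In the data, the slope of Mybpc2 on Adipoq, 2.06, was still not called. A gene that was not called may thus still differ. All listed genes are accounted for, and up to 4 called genes of each other list are named. The number of arrays, not a read depth, limits precision. No detection calls or scan dates were used. The alternatives were offsets of 10 and 100, quantile normalization, no filter, a minimum of 500, the mean of probe sets, a trended robust fit, tumours with m identifiers only, no osteosarcomas 6 and 9, and each osteosarcoma left out; these for the named genes of other lists, and the tumours with c or o identifiers (6) or c alone (4), were run after seeing the data. The genes and lists were chosen with earlier results of these data known.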

Additional observations from a re-analysis of the deposited data

How the results depend on the processing

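Of 67 differences and slopes of single genes, 51 stayed on the same side of the threshold under every alternative run. None of those called in the main fit changed sign, but several that were not called did. Among these, that of Lipe against mc3T3 ranged from -0.17 to 0.19. In the labelled rhabdomyosarcoma, that of Plin4 ranged from -0.24 to 0.38, and those of Slc2a4 and Scd1 also took both signs. Of the 25 genes, 5 to 7 were called higher in the osteosarcomas than in mc3T3 and 6 in every fit without 1 osteosarcoma, and 1 to 2 were called lower, the 2 after quantile normalization, where Acly joined (-1.02, adjusted p = 0.0488). In the labelled rhabdomyosarcoma 0 were called higher throughout and 1 to 3 lower, the 1 within the tumours with c identifiers. Against the main value of 1, the count of genes with a called slope on the muscle level was 0 with an offset of 10, after quantile normalization, without a filter, within the c and o or the c identifiers and without osteosarcomas 6 and 9, which were also the tumours farthest from the median, 3 with an offset of 100, and 0 to 1 with 1 osteosarcoma left out. Calls of single tumours against the others went from 0 to 1, that of Plin4 in osteosarcoma 6, with an offset of 100, after quantile normalization and with the mean of probe sets (of other genes). Within the 4 tumours with c identifiers, Acaa2 and Pgd were no longer called against mc3T3 (adjusted p = 0.0579 and 0.129). Slc2a4 was called higher than mc3T3 only within the tumours with m identifiers (2.73, adjusted p = 0.0155), Pde3b in the labelled rhabdomyosarcoma only without osteosarcoma 7 (adjusted p = 0.0344), and the Car3 difference from mc3T3 was 4.62 with the mean of probe sets (adjusted p = 0.00497). The cause was not tested. No paired analysis was possible because mc3T3 and the labelled rhabdomyosarcoma had 1 array each and no replicate numbers are shared between the groups in the labels. Differences against a signal near 0, as in mc3T3, depend on the offset: that of Fabp4 ranged from 5.99 to 8.66 and that of Lpl from 5.34 to 8.35.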
